A study of Arabidopsis thaliana with 4 samples.

Results

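Steady-state mRNA was compared between hypoxic and non-stressed Arabidopsis thaliana seedlings, with 1 array of total RNA on each side. The arrays were Affymetrix ATH1 chips, on which a set of short oligonucleotide probes, the probe set, stands for each transcript. Both samples came from 7-d-old wild-type seedlings (WT ler in the labels, read here as the Ler accession) under low light. The hypoxia sample had received 12 h of low oxygen, whereas the control label gives no time, so a difference in sampling time cannot be told apart from the treatment. A probe set belonged to the comparison when its signal exceeded 140 on at least 1 of these arrays, which held for 14308 of the 22810 probe sets on the chip and, among those named by a single gene, for 7610 of 13355 genes. With 1 array a side no difference has a replicate check, and only fold sizes are given. Every value is a linear intensity, scaled so that the arrays have the same average, so a change in the total amount of mRNA is not visible. Whole seedlings were extracted, and fewer cells of a type cannot be told apart from less RNA per cell. The same study held arrays of RNA from large polysomes, mRNA loaded with many ribosomes, from 12 h of hypoxia and from a control labelled 12 h. Their ratios share no array with those of total RNA and are set beside them where they differ.

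Plants need oxygen as the last electron acceptor of respiration. When it runs short, transcription factors of the ethylene response factor family, which are degraded in air through their oxidised amino terminus, accumulate and switch on a small set of genes in roots and shoots alike. Products of this core set turn pyruvate into ethanol and lactate, which regenerates the NAD+ that glycolysis consumes, and sense calcium or restrain the response itself. Growth, which costs much ATP, slows at the same time.

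Hypoxic seedlings held much more mRNA of the core hypoxia genes and of heat shock proteins. They held less mRNA of 4 of 7 xyloglucan endotransglucosylase/hydrolases, 3 of 9 expansins and 3 of 7 tubulins. These lists and families were chosen with earlier results of these data known, so their counts are description and no independent support. Most genes had a small computed ratio. Of the 7610 genes, 4942 (64.9%) had a ratio within 1.5-fold of the control. Signals under the limit for entering the comparison were first set to that limit. For a gene below it on either array the ratio is a bound, so some of the 4942 may have moved further. AT1G52560, with signals of 4.5 in control and 164.6 in hypoxia, counts among them with a bound of 1.18-fold. A level at least 2-fold above control was found for 413 genes (5.43%), and one at least 2-fold below it for 666 (8.75%). Among these named genes the lower side was the more populous up to 3-fold (150 higher, 177 lower). At 4-fold their order turned, with 84 higher and 71 lower. Over all probe sets the lower side was still larger at 4-fold (146 higher, 183 lower), and the order had turned at 8-fold (42 and 26). At 8-fold there were 20 higher and 10 lower genes, and at 16-fold 6 and 2. Over all probe sets, named or not, 772 (5.4%) had a ratio of 2-fold or more on the higher side and 1438 (10.1%) on the lower. The higher ones thus made up 34.9% of the called probe sets, a share that became 65.2% (1633 higher, 871 lower) when the arrays were scaled on the bacterial RNA spiked into the samples, which moved the median log2 ratio of all probe sets by 0.28.

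Among the 413 genes at least 2-fold higher, 63 had a control signal below 140 and among the 666 lower ones 175 had a hypoxia signal below it. For these the dim side was set to 140, and the ratio is a bound, written "at least". The median log2 ratio was -0.06 over measured genes, with a 5th percentile of -1.25 and a 95th percentile of 1.03. Genes at least 2-fold higher had a median signal of 341.2 in control and 1006.6 in hypoxia. Those at least 2-fold lower went from a median of 578.1 to 201.9. The plot of all measured genes shows the higher genes spread over the whole range of hypoxia signals, up to 20833.4 for AT4G27450, a gene of the core hypoxia list, whose control signal was 4416.7. In hypoxia 33 of the higher genes had a signal of at least 4480, a level that 2 of them had in control.

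**Figure D1:**
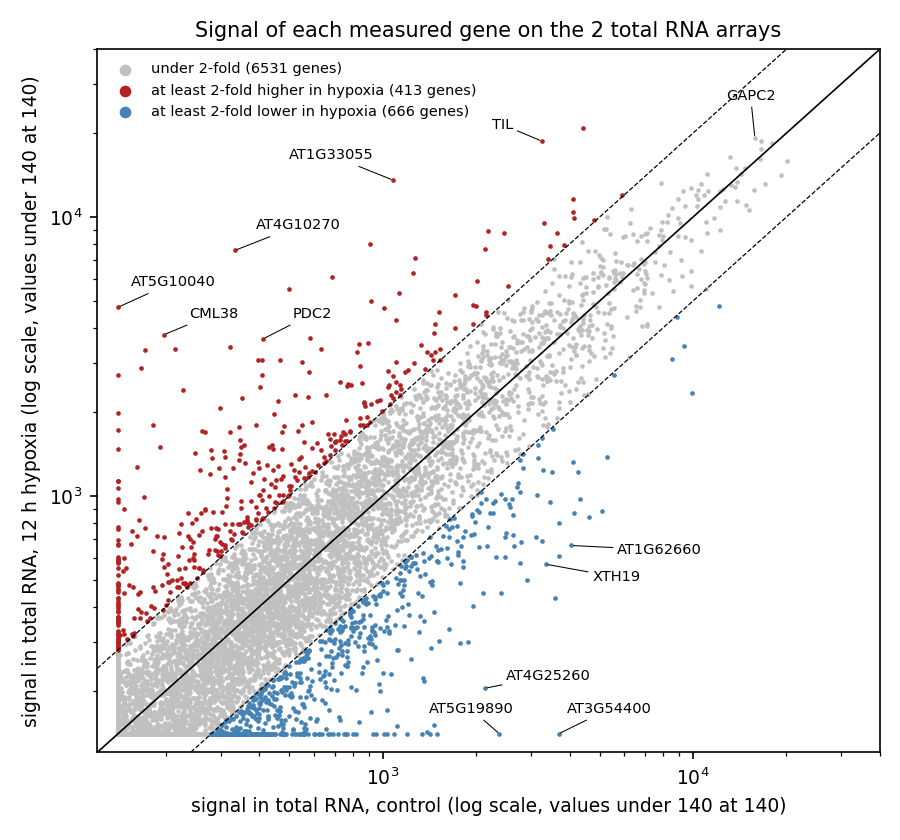
Each point is 1 of 7610 genes, with its signal in total RNA of control seedlings on the x axis and of hypoxic seedlings on the y axis, both on log scales with values under 140 drawn at 140. The 413 red genes lie above the upper dashed line (2-fold higher) and the 666 blue genes below the lower one, and AT5G10040 and AT3G54400 stand farthest out on each side.

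The core hypoxia list, drawn from other studies of low oxygen, held 50 genes, of which 25 could be named and 23 exceeded the floor of 140. Of these 22 were at least 2-fold higher, against 5.43% of all measured genes, and none was 2-fold lower. Their median log2 ratio was 2.67, where that of all measured genes was -0.06. The signals of the 23 genes ran from 58.5 to 4416.7 in control, with a median of 401.8, and from 251.3 to 20833.4 in hypoxia, with a median of 2713.8. The exception was FHL, which acts in light signalling through phytochrome A and had signals of 215.4 and 251.3, a log2 ratio of 0.22. On the large-polysome arrays FHL stood at 1.04.

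PDC2, a pyruvate decarboxylase that commits pyruvate to ethanol fermentation, went from a signal of 411.7 to 3657.8, an 8.88-fold difference and a log2 ratio of 3.15. CML38, a calmodulin-like calcium sensor, went from 197.4 to 3787.5, which is 19.2-fold. AT3G10040, annotated as HRA1 (hypoxia response attenuator), a transcription factor that holds back the response, had 98.1 in control and 2713.8 in hypoxia and was at least 19.4-fold higher. AT5G10040 had the highest ratio of all named genes, at least 33.9-fold, with signals of 58.5 and 4746.9. AT4G10270 led the genes above 140 on both arrays at 22.7-fold, from 334.1 to 7598.2. AT1G33055 reached 13576.9 from a control signal of 1077.2, which is 12.6-fold.

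The remaining core genes are named by locus in the annotation used here. AT3G27220 stood at a log2 ratio of 3.30, AT2G17850 at 3.15, AT5G66985 at 3.13, AT4G24110 at no less than 3.01 and AT5G26200 at 2.71. The lower end of the list was made up of AT3G10020 at 1.07, AT1G19530 at 1.59, AT4G17260 at 1.71 and AT5G44730 at 1.74. AT3G10020 differed most between the fractions among these, with 3.25 in large-polysome RNA.

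**Figure D2:**
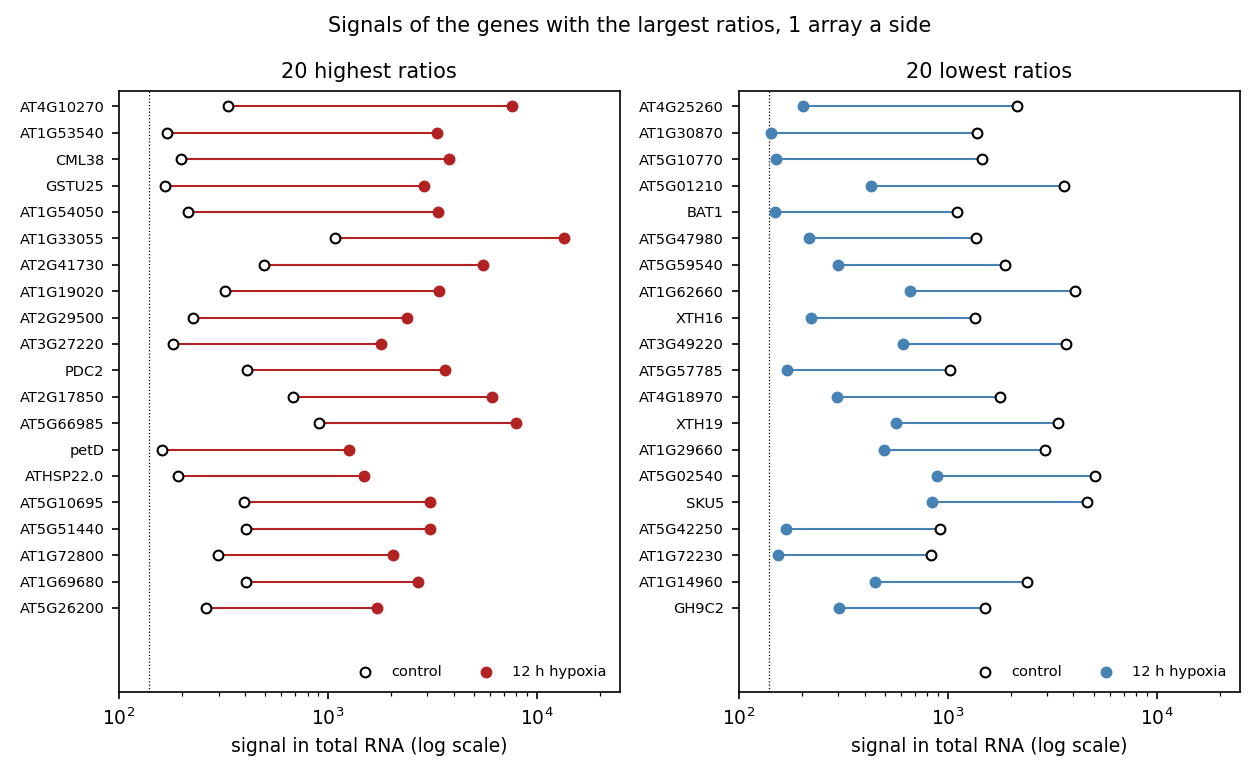
Open points give the control signal and filled points the hypoxia signal, on a log scale, for the 20 highest (left) and 20 lowest (right) ratios among genes above 140 (dotted line) on both total RNA arrays. On the left the control signals lie between 161.7 (petD) and 1077.2 (AT1G33055), and on the right the hypoxia signals lie between 142.3 (AT1G30870) and 885.4 (AT5G02540).

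Genes of the heat shock list were higher as well. Heat shock proteins are chaperones that hold or refold damaged proteins, and the small ones are nearly silent in unstressed seedlings. Of 31 genes written down 10 were measured, with a median log2 ratio of 2.49. None lay 2-fold lower and 7 reached 2-fold on the higher side, beside 5.43% of all measured genes. AT1G53540 went from 170.5 to 3341.5 (19.6-fold), AT1G54050 from 214.4 to 3351.1 (15.6-fold) and AT2G29500 from 226.6 to 2390.5 (10.5-fold). ATHSP22.0, a small heat shock protein of the endoplasmic reticulum, went from 191.7 to 1494.3, a log2 ratio of 2.96, and AT5G48570, the peptidyl-prolyl isomerase ROF2, stood at 1.73. The members that did not reach 2-fold were AT3G09440 at -0.77, Hsp70-2, an HSP70 chaperone, at -0.18 and AT1G52560, a bound of 0.23 from signals of 4.5 and 164.6.

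Some further stress genes were chosen after their values were seen, for being high, so they say nothing of a group. Hop3, which bridges HSP70 and HSP90, had a log2 ratio of 2.07, HSA32, needed for lasting heat tolerance, 2.10, and Fes1A, a nucleotide exchange factor of HSP70, 1.73. TIL, a temperature-induced lipocalin that protects membranes, went from 3255.9 to 18730.2, a log2 ratio of 2.52. BZIP60, a transcription factor of the unfolded protein response, stood at 1.05.

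The list of reactive oxygen and mitochondrial stress genes gave 5 measured of 24, with a median of 1.80. Of these, 3 reached 2-fold on the higher side, beside 5.43% of all measured genes. GSTU25, a glutathione transferase of the tau class, went from 166.5 to 2872, which is 17.2-fold, and STZ, a zinc finger repressor of stress signalling, from 170.4 to 994, a log2 ratio of 2.54. AT2G21640 stood at 1.80. NDB2, an alternative NADH dehydrogenase of the mitochondrial inner membrane, stood at 0.29 and AT5G09570 at 0.50 (1.75 in large-polysome RNA).

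Detoxification families split. Glutathione transferases of the tau class join glutathione to reactive compounds. Of 7 measured, 2 lay past 2-fold on the higher side and 3 on the lower, beside 5.43% and 8.75% of all measured genes. Beside GSTU25, GSTU22 stood at 2.03, while GSTU28 was at least 3.99-fold lower (558.9 to 133.1) and GSTU26 and GSTU27 stood at -1.50 and -1.39. GSTU25 and GSTU26 carry successive locus numbers and went opposite ways. UDP-glycosyltransferases, which attach sugars to hormones and secondary metabolites, were split likewise. Of 27 measured, 4 lay past 2-fold on the higher side and 8 on the lower, beside the same 5.43% and 8.75%. On the higher side were UGT73B4, no less than 2.27 from signals of 27.5 and 673.8, its neighbour UGT73B5 at 1.66, UGT87A2 at 1.83 and UGT84A3 at 1.01. On the lower side were UGT71C1, at -2.45 or below, UGT72E2, which glycosylates lignin precursors, at -1.50, and UGT85A2 at -1.42. The median of the family was -0.38. Of 8 aldehyde dehydrogenases, which oxidise aldehydes to acids, only ALDH7B4 reached 2-fold, at 1.02. On the higher side 5.43% of all measured genes did.

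**Figure D3:**
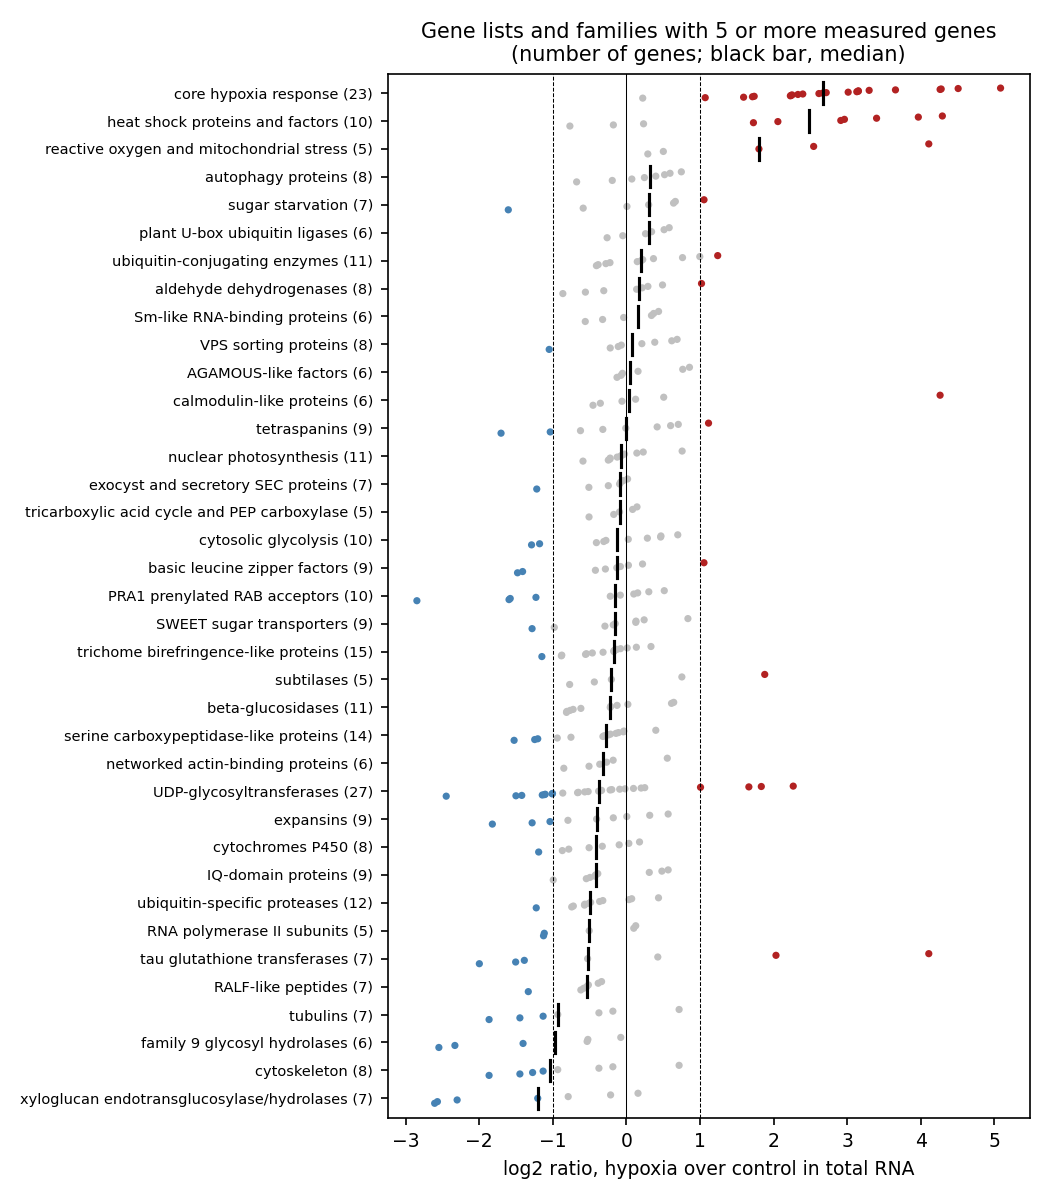
Each point is the log2 ratio of hypoxia over control in total RNA of 1 measured gene, by gene list or family, with the number of measured genes in brackets and a black bar at the median. Red and blue points are past 2-fold (dashed lines), and the core hypoxia list (median 2.67) and the xyloglucan endotransglucosylase/hydrolases (median -1.20) lie at the ends.

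Beyond fermentation, the measured genes of central carbon metabolism stayed mostly within 2-fold. Of 35 cytosolic glycolysis genes written down 10 were measured, so much of the pathway was not covered. None was 2-fold higher and 2 were 2-fold lower or more, beside 8.75% of all measured genes. GAPC2, a cytosolic glyceraldehyde-3-phosphate dehydrogenase one of the 10 genes with the highest mean signal of both arrays, went from 15828.9 to 19293.2 (0.29), and TPI, triose phosphate isomerase, from 12208.2 to 12429.5 (0.03). AT5G08570 had the highest ratio of the list at 0.70. The 2 lower genes were AT1G12000 and AT1G20950, at -1.29 and -1.18, with -1.26 and -0.81 in large-polysome RNA. The median of the 10 genes was -0.13, and it became 0.19 on the spiked controls. The 5 measured genes of the tricarboxylic acid cycle and of PEP carboxylase lay between -0.51 and 0.14.

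Genes that respond to sugar starvation diverged. AKINBETA1, a regulatory subunit of the energy-sensing kinase SnRK1, went from 3826.5 to 7949.1, a log2 ratio of 1.05. MCCA and MCCB, the subunits of the carboxylase that degrades leucine, stood at 0.67 and 0.30, and IVD, which acts one step earlier in that route, at 0.64. In large-polysome RNA MCCA stood at 1.90. ATL8, a RING-type ubiquitin ligase, went the other way, from 653.2 to 214.9 (-1.60). FDH, the mitochondrial formate dehydrogenase, and GPDHC1, a cytosolic glycerol-3-phosphate dehydrogenase, were chosen after their values were seen: FDH went from 9923 to 2329.1 (-2.09), and GPDHC1 had a log2 ratio of -2.02. AT1G62660, a starch and sucrose list member, went from 4053.5 to 663.2, a log2 ratio of -2.61.

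Families that build or loosen the cell wall, chosen with earlier results of these data known, differed in how many members were lower. Xyloglucan endotransglucosylase/hydrolases cut and rejoin the xyloglucan that ties cellulose fibres together, and 4 of 7 measured were at least 2-fold lower, beside 8.75% of all measured genes, with none 2-fold higher. XTH16 went from 1344.4 to 221.1 and XTH19 from 3363.9 to 567.8, log2 ratios of -2.60 and -2.57. XTH33 was at -2.30 or below and XTH32 at -1.20, while XTH18, bright at 4363.7 and 3761.8, and XTH20 lay at -0.21 and 0.16. XTH26, from 242.1 to 6.8, was at -0.79 or below, so whether it passed 2-fold is not known. The median of the family was -1.20, and -0.89 on the spiked controls. Of the CSLC glucan synthases, which make the xyloglucan backbone, CSLC04 went from 2798.3 to 681.6 (-2.04), CSLC5 stood at -1.42 and CSLC6 at -0.15.

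Expansins loosen the wall without cutting it. With a median of -0.40, 3 of 9 measured were at least 2-fold lower (8.75% of all genes were), EXPA18 at -1.82, EXPA7 at -1.28 or below and EXPA8 at -1.04, and EXPB3 was the highest at 0.57. Family 9 glycosyl hydrolases, the endoglucanases, gave 3 of 6 at least 2-fold lower. GH9C1 stood at -2.55 or below, GH9C2 went from 1517.1 to 301.9 (-2.33) and GH9B7 stood at -1.40. Their family's median was -0.97, and -0.22 on the spiked controls. That scaling brings more dim probe sets above the floor (14899 measured, against 14308), so the medians can cover different genes. The spiked controls had a median log2 ratio of -0.31, so rescaling the same genes would move the median by less. COB, which orients cellulose microfibrils, went from 3503.2 to 1214.1 (-1.53). SKU5, a wall-associated protein of directional root growth, went from 4627.2 to 840.5 (-2.46). The 3 measured pectin methylesterases diverged, with ATPMEPCRB at -2.76 or below, PMEPCRF at 0.56 and PME61 at 1.63. Of 15 trichome birefringence-like proteins, a family that acetylates wall polysaccharides, 1 was at least 2-fold lower, a share near the 8.75% of all genes, and the median of -0.17 became 0.07 on the spiked controls.

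Both measured root hair markers of 10 written down were EXPA7 and EXPA18, so the expansin values and the marker values are the same genes. Their summed signal was 1200.1 in control and 339.1 in hypoxia. The single measured root marker of 7, PYK10, a beta-glucosidase abundant in root and hypocotyl, had 19221.3 and 14173.7, and 3 of 10 green leaf markers summed to 36957.9 and 35778.4. Markers of root and of green tissue were thus both detected on each array. The part of root hair number in the wall genes was not tested.

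Tubulins, a family also chosen with earlier results of these data known, are the subunits of the microtubules that guide cellulose deposition. Of 7 measured, 3 were at least 2-fold lower, beside 8.75% of all measured genes. TUB1 went from 1768 to 485.4 (-1.86), TUA6 from 9355.9 to 3433.4 (-1.45) and TUB7 from 1252.9 to 572.1 (-1.13), and ACT11, an actin, stood at -1.27. The other tubulins were TUB9 at -0.93, TUB6 at -0.37, TUB5 at -0.18 and TUA1 at 0.72. Over the cytoskeleton list 4 of 8 genes were at least 2-fold lower, with a median of -1.03 that stayed at -0.72 on the spiked controls. Of the RALF-like peptides, small secreted signals of which some restrain cell expansion, 1 of 7 was at least 2-fold lower (8.75% of all genes were), RALFL24 at -1.33, and the other members lay between -0.62 and -0.34.

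Growth hormones were represented by few named genes. BAT1, an acyltransferase that inactivates brassinosteroids, went from 1107.5 to 149.9 (-2.89). IAA29, an auxin-induced repressor of auxin signalling, went from 972.1 to 211.3 (-2.20). The auxin-conjugating enzymes WES1 and GH3.3 stood at -0.14 and -0.08, so the auxin genes did not move together. WAG2, a protein kinase that directs auxin transport, was at least 7.78-fold lower, from 1089.2 to 113. Of the clock list only GI, which times flowering, had a named probe set, and it stood at -0.86 in total RNA and -0.06 in large-polysome RNA.

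Several of the largest lower ratios belonged to genes without a symbol. AT3G54400 went below the floor in hypoxia (3688.6 to 120.6) and was at least 26.3-fold lower, and AT5G19890 was at least 17-fold lower (2375 to 128.4). Among genes above 140 on both arrays, AT4G25260 went from 2141.2 to 204.1, a log2 ratio of -3.39. AT1G30870 and AT5G10770 stood at -3.28 and AT5G01210 at -3.07, followed by BAT1 at -2.89. The bounds of AT5G62280 (-3.41), AT5G57760 (-3.34), AT5G04960 (-3.25) and AT4G35720 (-3.10) lay in the same range. All of these but AT5G10770, 10 genes, were past 2-fold lower in large-polysome RNA too, between -5.02 for AT3G54400 and -1.78 for BAT1. AT5G10770 was not. Its ratio was -3.28 in total RNA, from 1465.9 to 150.9, and 0.62 in large-polysome RNA.

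Secondary metabolism and light-related genes gave a mixed picture. Of 3 measured glucosinolate genes, BCAT4, which starts methionine chain elongation, went from 1664.8 to 566.9 (-1.55) and UGT74B1, which glycosylates the core structure, stood at -1.14. AOP1 and AOP3 are dioxygenase genes, adjacent when only protein-coding genes of the annotation are counted, and AOP3 modifies glucosinolate side chains. They stood at -1.82 and -1.61. PORB, a light-dependent enzyme of chlorophyll synthesis, went from 5556.7 to 2703.6 (-1.04), and CHLM, which acts earlier, stood at 0.42. None of 11 nuclear photosynthesis genes reached 2-fold. They ran from LHCB4.3 at -0.59 to the photorespiratory enzyme gene HPR at 0.76, and their median of -0.08 became 0.24 on the spiked controls.

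Smaller families of protein handling and traffic moved little or split. Of 8 autophagy proteins none reached 2-fold, and 6 were above 0. UBC19, a ubiquitin-conjugating enzyme, stood at 1.24. Of 12 ubiquitin-specific proteases 1 was at least 2-fold lower (UBP22, at -1.22 or below), a share near the 8.75% of all measured genes. PRA1 proteins, which help RAB GTPases onto membranes, had 4 of 10 at least 2-fold lower. PRA1.B4 went from 1006.3 to 86.7 and stood at -2.85 or below, PRA1.F1 at -1.59 or below, PRA1.B6 at -1.58 and PRA8 at -1.23. The other 6 lay between -0.22 and 0.51, so that the family's median was only -0.15 and changed sign to 0.16 on the spiked controls. Among the serine carboxypeptidase-like proteins 3 of 14 were at least 2-fold lower, beside 8.75% of all genes, scpl48 the lowest at -1.52.

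The 69 measured chloroplast-encoded genes spread more widely than their median of -0.27 shows, and that median was 0.04 on the spiked controls. Of them 11 (15.9%) lay 2-fold or more higher, beside 5.43% of all measured genes, and 4 (5.8%) lay 2-fold or more lower, beside 8.75%. The higher ones were petD, petG and petN of the cytochrome b6f complex, rpoB of the plastid RNA polymerase, atpI of the ATP synthase, ycf3, which assembles photosystem I, the ribosomal protein genes rps14 and rpl20, ndhG, ccsA and psbN. petD went from 161.7 to 1270.1 (2.97), rps14 from 128.1 to 1130.2 (at least 8.07-fold) and ycf3 from 346.6 to 1581 (2.19). The lower ones were psbA, which encodes the D1 protein of photosystem II, atpA and atpF of the ATP synthase and rpoC2. psbA went from 5289.2 to 1381.8 (-1.94) and atpA from 12158.1 to 4803.8 (-1.34). Genes of 1 complex therefore lay on both sides. The 11 higher genes had a median signal of 298.6 in control, and the 54 genes under 2-fold had 4672.95. In large-polysome RNA the order was turned: 10 of the 11 had a ratio below 0 there, psbN being the exception at 0.20. All 4 of the lower ones were past 2-fold higher in that fraction. So were 15 of the genes under 2-fold in total RNA, and the median of all 69 was 0.52 there, with 54 above 0 and 15 below. The large-polysome signals, control then hypoxia, were 5051 and 12042.8 for atpA, 935.3 and 253.1 for petD and 494.8 and 1303.9 for psbA. For atpA the total RNA signals of 12158.1 and 4803.8 were close to these in reverse order. For psbA (5289.2 and 1381.8) they were not. Why the fractions crossed was not tested.

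**Figure D4:**
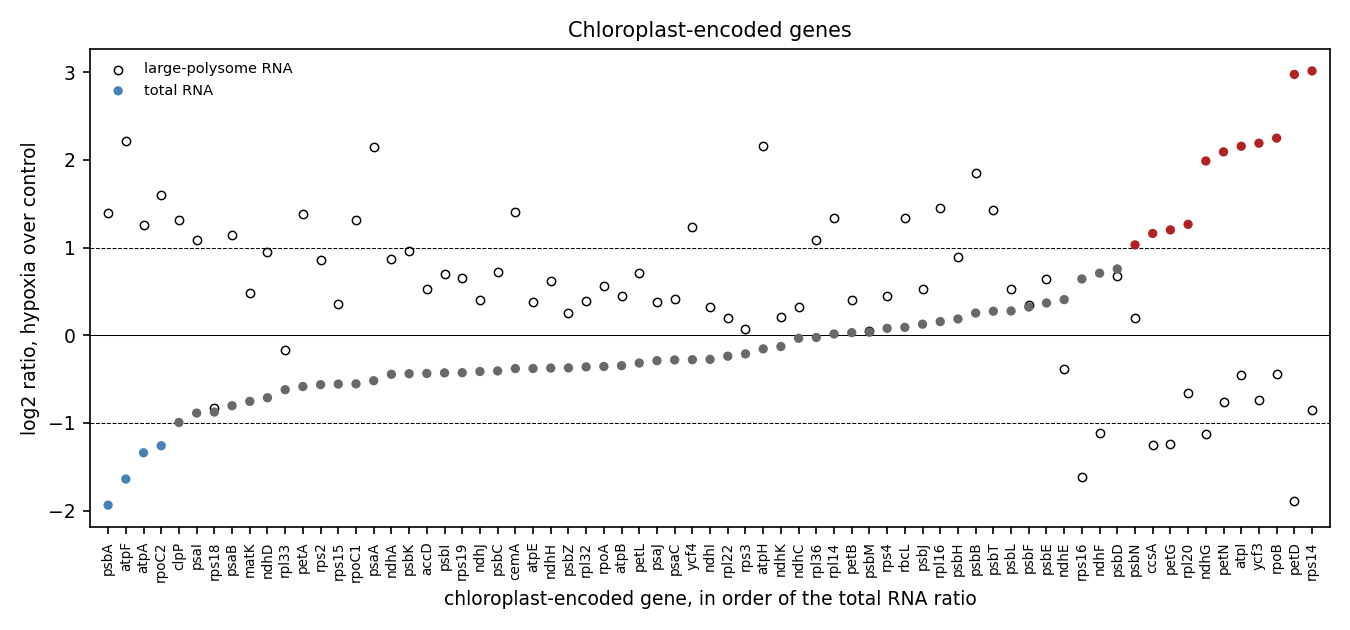
Filled points give the log2 ratio of hypoxia over control in total RNA for 69 chloroplast-encoded genes in order of that ratio, and open points the ratio of the same gene in large-polysome RNA. At the left psbA has -1.94 and 1.40, and at the right petD has 2.97 and -1.89.

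Over all measured genes, those of the chloroplast included, the large ratios mostly had the same direction in both fractions. Of the 84 genes at least 4-fold higher in total RNA, 76 (90.5%) were past 2-fold higher in the polysome fraction as well, where 8.04% of its measured genes were. Of the 71 genes at least 4-fold lower, 67 (94.4%) were past 2-fold lower there, beside 10.1% of its measured genes. For all 413 genes at least 2-fold higher the share was 67.1%, and for the 656 lower ones measured in both it was 60.7%.

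The share of genes higher in hypoxia went down with gene length. Of nuclear genes under 1000 bp (gene length in the TAIR10.1 annotation, introns included) 12.2% were at least 2-fold higher, of those from 1000 to 2000 bp 6.69%, and of those of 4000 bp or more 2.48%. The lower side ranged less, with 9.83%, 8.81%, 8.8%, 9.47% and 7.25% from the shortest to the longest class. At 4-fold higher the shares were 5.46%, 1.52% and 0.0993%. The 77 nuclear genes at least 4-fold higher had a median length of 1262 bp, all measured nuclear genes 2318.5 bp, and the 70 at least 4-fold lower 2028 bp. Restricted to genes with a mean signal of 560 or more, which leaves out dim genes, the shares at least 2-fold higher in the same length classes were 18.7%, 10.5% and 2.68%, and on the large-polysome arrays, over all signals, they were 18.2%, 9.16% and 4.44%. The lower shares on those arrays also went down with length, from 13.5% under 1000 bp through 11.6%, 9.89% and 9.45% to 6.55% at 4000 bp or more. As a sign of RNA quality in total RNA, the 3' probe set of the actin control exceeded the 5' one by a factor of 5.46 in control and 5.53 in hypoxia. For GAPDH the factors were 1.06 and 0.746. On the large-polysome arrays the actin factors were 10.9 in control and 7.34 in hypoxia, and those of GAPDH 1.12 and 0.8. The part of RNA quality in the order by length was not tested.

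**Figure D5:**
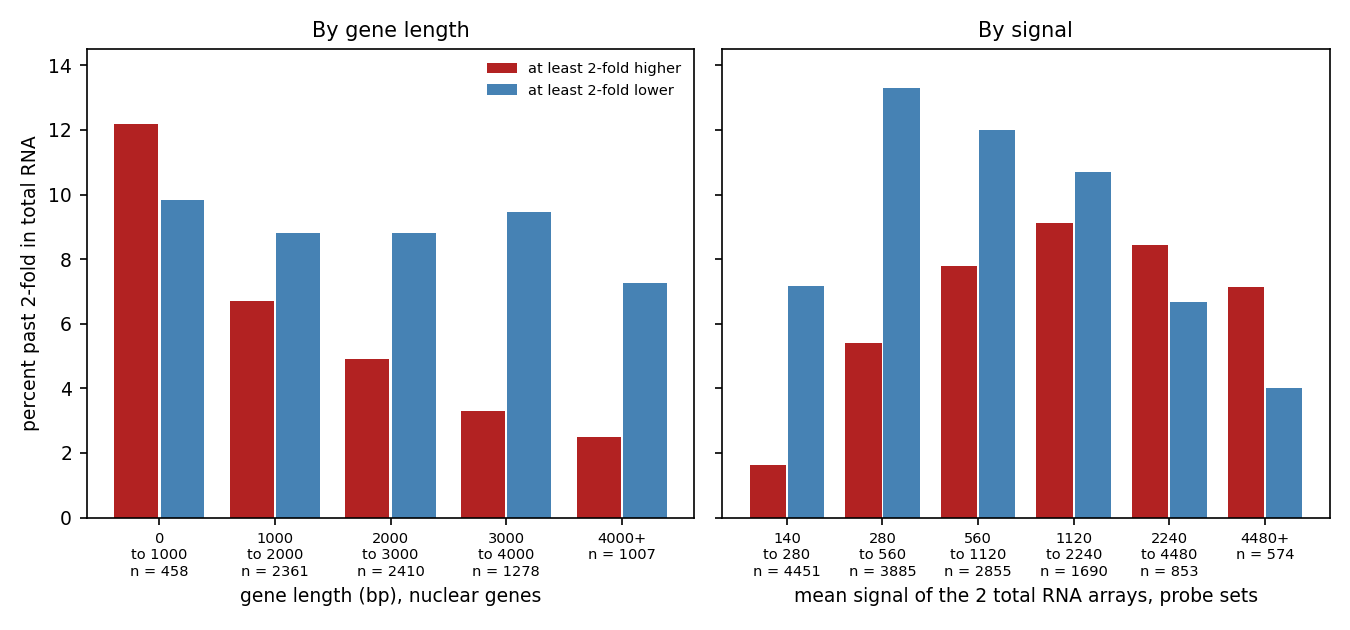
Bars give the percent of nuclear genes (left, by gene length in bp) and of probe sets (right, by mean signal of the total RNA arrays) that were at least 2-fold higher (red) or lower (blue) in hypoxia, with the number in each class. The red bars on the left go down from 12.2% to 2.48% with length, while the blue bars lie between 7.25% and 9.83%.

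The share past 2-fold differed between classes of signal without a steady order. Of probe sets with a mean signal from 140 to 280, 1.64% lay past 2-fold higher and 7.17% past 2-fold lower. The mean was taken after values under 140 were set to 140, so at the bottom of this class no probe set can reach 2-fold. Its low shares are therefore partly set by the floor. The lower share was highest from 280 to 560, at 13.3%, and the higher share from 1120 to 2240, at 9.11%. At 4480 or more 7.14% were higher and 4.01% lower. The 10 genes with the highest mean signal of both arrays stayed within 2-fold, from PYK10 at -0.44 to psbF at 0.32. On the nuclear chromosomes the shares were even, between 4.77% and 6.26% higher and between 7.88% and 9.16% lower.

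Adjacent genes past 2-fold the same way were few. Of 2326 pairs of neighbouring protein-coding genes that were both measured, 30 were past 2-fold in the same direction and 17 in opposite directions. Over all measured genes 5.43% were at least 2-fold higher and 8.75% lower. How many such pairs these shares alone would give was not computed, so the counts show nothing particular to neighbours. AT1G33050 stood beside AT1G33055 (1.69 and 3.66), AT2G32020 beside AT2G32030 (3.62 and 1.80, both bounds) and ATHSP22.0 beside AT4G10260 (2.96 and 1.71, the last a bound). On the lower side P1R1 and AT5G57785 stood at -2.01 and -2.59, AT5G25510 and AT5G25520 at -1.97 and -1.96, and AT3G45700 and AT3G45710 at -1.80 and -1.89.

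The arrays allow a look at technical error only. The 18 spiked control probe sets had log2 ratios from -0.48 to 0.01, with a median of -0.31. For 71 genes with a pair of measured probe sets the log2 ratios differed by a median of 0.40 and a 95th percentile of 1.1. In 4 of them the difference exceeded 1, among them AT3G09470 at -0.85 and 0.71, AT5G22700 at 0.06 and 1.49 and SETH5 at -0.08 and 1.31. A ratio near 2-fold, a log2 of 1, lies within that error. It holds no variation between samples, so a ratio beyond it is not shown to exceed the spread between seedling samples. At the edge of the rule 372 probe sets had a highest signal between 140 and 150 and were inside, and 392 between 130 and 140 were outside.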

How the data were processed

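The authors deposited 1 linear intensity per probe set and array; the summarising software is not given in the sources used here. Between the 2nd and 98th percentile each array's mean was near 500 (499.6 and 499.8 in total RNA), which points to a common target chosen by the authors. Per the file headers, the arrays shared chip type, wash protocol and station, and the total RNA hypoxia array was scanned 2 times. Median signals were 217.75 in control and 183.1 in hypoxia, and 59.8% and 56.2% of probe sets exceeded 140; the number of arrays limits the precision.

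Log2 ratios were computed in Python (pandas 2.3.3, numpy 2.4.6) after values under 140 were set to 140, and probe sets under it on both arrays were left out. Of 22746 non-control probe sets, 13513 had 1 gene in the platform annotation, 503 had several and 8730 were not listed; symbols and lengths came from RefSeq TAIR10.1, used for names, lengths and neighbours only. A gene with several probe sets was read from the brightest over the total RNA arrays. Counting was checked on simulated data. Named were the 20 highest and lowest ratios, the 8 largest bounds each way, list and family members past 2-fold with each list's extremes, the 10 brightest genes, discordant probe sets, genes opposite between fractions and neighbouring genes; others are stated as chosen later. Gene lists, and families by symbol stem, were chosen with earlier results of these data known. Alternatives were other scalings, floors of 70 and 280, no bounds, probe sets averaged and a 3-fold threshold. Promoter motifs and sequences were not analysed here.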

Additional observations from a re-analysis of the deposited data

Results flagged for a closer look

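In 9 genes total and large-polysome RNA moved past 2-fold in opposite directions between control and hypoxia, and 8 of them are chloroplast-encoded. With 1 array in each group this difference was not tested. In total RNA psbA had a log2 ratio of -1.94, atpF -1.64, atpA -1.34 and rpoC2 -1.26, and in large-polysome RNA they had 1.40, 2.21, 1.25 and 1.60. Opposite to these, ccsA had 1.16, petG 1.20, ndhG 1.99 and petD 2.97 in total RNA; their large-polysome ratios were -1.25, -1.24, -1.12 and -1.89. The nuclear gene AT5G55450 had 1.14 (signals of 171.8 and 379.9) and -1.12.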

How the results depend on the processing

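No paired analysis was possible because each group had 1 array and the labels carry no replicate numbers. Scaling on the spiked controls gave 884 genes at least 2-fold higher and 393 lower (probe sets 1633 and 871). A floor of 280 gave 345 genes and 846 probe sets lower. At 3-fold there were 150 genes higher and 177 lower (probe sets 272 and 434). Counted apart, probe sets named by 1 gene gave 418 higher and 669 lower (5.44% and 8.7% of 7689 measured). Those not listed gave 338 and 733 (5.33% and 11.6% of 6336 measured). The lower share was thus larger among probe sets not listed, while the higher shares were alike. This split was chosen after seeing the data. The median of the heat shock list was 2.94 with a floor of 70 and 2.94 among probe sets above the floor on both arrays. No 2-fold called value changed sign. Under the spiked-control scaling, centring, the other floors and no bounds none could, so for those settings this outcome was fixed in advance. Of 482 named genes, 41 moved by more than the median error between probe sets with a floor of 70 and 3 with probe sets averaged, and 63 of 409 with a floor of 280. Scaling on the spiked controls and centring shift all measured ratios by nearly the same amount, below that error, so they could move none by this measure. On the spiked controls the medians of subtilases (0.11), beta-glucosidases (0.10), bZIP factors (0.13) and the tricarboxylic acid cycle (0.22) turned above 0. Signals near 140 limit what can be seen: 10.6% of the probe sets had a signal above it in control only and 4.91% in hypoxia only. The promoter comparison planned for these genes was not run.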
